A study of Mus musculus with 4 samples.

Results

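Cardiac-rich spots of the lung were chosen by their own readout: they are the 3% of spots in each lung section with the largest share of UMIs (unique molecular identifiers, the counted probe molecules) on a score of heart muscle genes. The score named 7 genes, of which Myh6, Myl7, Myl4, Tnnt2, Tnni3 and Nppa were summed. Counts of Actc1 were not analysed here, and this gene enters only the promoter search. The rule chose 51 of the 1697 spots kept for lung A and 83 of the 2780 for lung B, which is 134 of 4477 lung spots and of 9339 spots in the series. The series holds 1 section of the primary tumour and 1 of the lung from each of 2 BALB/c mice, which are called A and B in the order of their labels. All 4 sections share the same treatment: cells of the 4T1 mammary carcinoma line were placed in the mammary fat pad at 8 weeks of age, and the mice were killed 28 days later. No lung of an uninjected mouse was analysed here, and each lung is 1 section of 4 micrometres through 1 animal. Visium for fixed tissue counts pairs of probes on a grid of spots, and 1 spot pools the RNA of neighbouring cells that need not be of the same type.

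Cardiac muscle is not limited to the heart in mice. Sleeves of striated heart muscle run from the left atrium along the pulmonary veins into the lung, and they contract with the atrium. Atrial and ventricular heart muscle share a core of sarcomere genes but differ in their light chains: Myl7 and Myl4 encode the atrial regulatory and essential light chains, and Myl2 and Myl3 the ventricular ones. Nppa encodes the atrial natriuretic peptide, a hormone that lowers blood volume, and Sln encodes sarcolipin, a small inhibitor of the calcium pump that is typical of atria. Shox2, Hcn4, Isl1, Tbx3 and Tbx18 belong to pacemaker tissue of the sinus node.

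The genes of heart muscle are switched on in part through short motifs in front of their start sites. The CArG box is bound by serum response factor, the MEF2 box by the MEF2 factors, and CATTCC, the MCAT motif, by TEAD factors. In RefSeq promoters on GRCm38.p6, the build also named mm10, the 190 bases before each start were searched on both strands, with no overlap of the motifs in the promoters shown. Of 128 listed heart muscle genes (score genes included), 100 matched, with 132 promoters, of which 11 held a CArG box (8.33%, against 1.14% of 32851 promoters), 10 a MEF2 box (7.58% against 2.16%) and 20 a CATTCC (15.2% against 9.59%). These shares are a description, and a match is not a measured binding site. The 5 windows that follow belong to members and marker genes on which the results turn: the atrial light chain Myl7 and troponin T (Tnnt2) of the score, titin (Ttn) and calsarcin-1 (Myoz2), which were among the largest increases outside it, and the ventricular light chain Myl3, whose promoter also holds motifs and whose level was low. Capitals mark the motifs, positions count back from -1 at the base before the start, and each window is 190 bases, 5′ to 3′ on the strand of the gene.
Myl7 (chr11:5898783-5898972, minus strand; CATTCC from -70, CArG box from -61): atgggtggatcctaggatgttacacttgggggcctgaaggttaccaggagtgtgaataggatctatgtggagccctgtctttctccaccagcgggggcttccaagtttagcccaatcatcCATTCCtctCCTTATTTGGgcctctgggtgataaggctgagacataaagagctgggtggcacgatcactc
Tnnt2 (chr1:135836144-135836333, plus strand; CATTCC from -27): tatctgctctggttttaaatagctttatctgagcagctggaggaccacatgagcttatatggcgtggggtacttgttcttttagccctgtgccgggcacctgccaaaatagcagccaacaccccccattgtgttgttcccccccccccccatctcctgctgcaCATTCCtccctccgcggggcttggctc
Ttn (chr2:76982548-76982737, minus strand; MEF2 box from -166): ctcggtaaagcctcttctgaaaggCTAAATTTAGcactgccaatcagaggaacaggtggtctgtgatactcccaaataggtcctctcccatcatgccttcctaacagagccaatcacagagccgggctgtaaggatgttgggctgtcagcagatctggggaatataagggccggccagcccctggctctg
Myoz2 (chr3:123034988-123035177, minus strand; MEF2 box from -33): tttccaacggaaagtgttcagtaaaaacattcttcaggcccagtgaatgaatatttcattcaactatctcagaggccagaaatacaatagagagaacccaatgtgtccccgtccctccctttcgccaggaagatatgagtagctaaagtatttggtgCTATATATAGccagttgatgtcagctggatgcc
Myl3 (chr9:110763488-110763677, plus strand; CATTCC on the other strand from -177 and on this strand from -149, CArG box from -85): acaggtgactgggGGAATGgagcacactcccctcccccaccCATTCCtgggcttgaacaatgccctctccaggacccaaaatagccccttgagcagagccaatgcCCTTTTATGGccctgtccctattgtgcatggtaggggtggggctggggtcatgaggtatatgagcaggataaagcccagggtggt

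The score values chose the spots and are therefore given as a description. The lungs had 11122812 UMIs (mouse A) and 30240176 UMIs (mouse B) in kept spots. Score genes took 0.844% of the UMIs of cardiac-rich spots in mouse A and 1.59% in mouse B, against 0.00292% and 0.00558% in the lower 80% of spots (1357 and 2224 spots, called lower-scoring spots here). The 3% of spots held 64.5% of all score UMIs of the section in mouse A and 57.0% in mouse B, and the 289 and 473 spots between both classes held 28.8% and 34.0%. The threshold fell on a continuous range: the last spot inside had a share of 0.229% and the first outside 0.221% in mouse A, and 0.616% and 0.613% in mouse B. Cardiac-rich spots were somewhat shallower than the rest, with a median of 5680 UMIs (mouse A) and 6350 UMIs (mouse B) where lower-scoring spots had 6678 and 9823.5.

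Myh6, the fast myosin heavy chain of mouse heart (chr14:54941921-54968017), was the most counted score gene, at 1008 UMIs in mouse A (3393 CPM, counts scaled to a total of 1000000 UMIs, exact 95% interval for counting error only 3186 to 3609) and 3307 UMIs in mouse B (5738 CPM, 5544 to 5937). Its levels in lower-scoring spots were 6.74 and 10.5 CPM. Tnnt2, which anchors the troponin complex on the thin filament, stood at 1848 and 4190 CPM, Myl7 at 1629 and 2438 CPM and Myl4 at 1363 and 2190 CPM. Tnni3, the inhibitory troponin of heart muscle, stood at 212 and 529 CPM. Probe pairs differ in efficiency between genes and the values are not per gene length, so levels are compared between samples and not between genes. Per spot, Myh6 ranged from 0 to 81 UMIs with a median of 13 in mouse A and from 9 to 156 with a median of 34 in mouse B.

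The cardiac-rich spots lay in patches, as the map of both lungs shows. On the grid, where each spot has up to 6 neighbours, 49 of 51 spots in mouse A (96.1%) and 78 of 83 in mouse B (94.0%) had at least 1 cardiac-rich neighbour. Mouse A had 9 patches, the largest of 12, 10, 9 and 8 spots, and mouse B had 12, the largest of 26, 13 and 13 spots. Leaving out single spots, the centres of the patches lay between rows 7.89 and 27.7 of the grid in mouse A and between rows 20.6 and 41.5 in mouse B. In mouse A, 1 isolated spot had 243 UMIs in all and entered the class with 1 UMI of Tnnt2. Spots with fewer than 6 neighbours under tissue made up 7.84% and 4.82% of the cardiac-rich spots and 10.8% of all spots of each lung. The share of UMIs was used as a fixed rule and the layout itself was not tested, since spots of 1 section are not replicates.

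**Figure D1:**
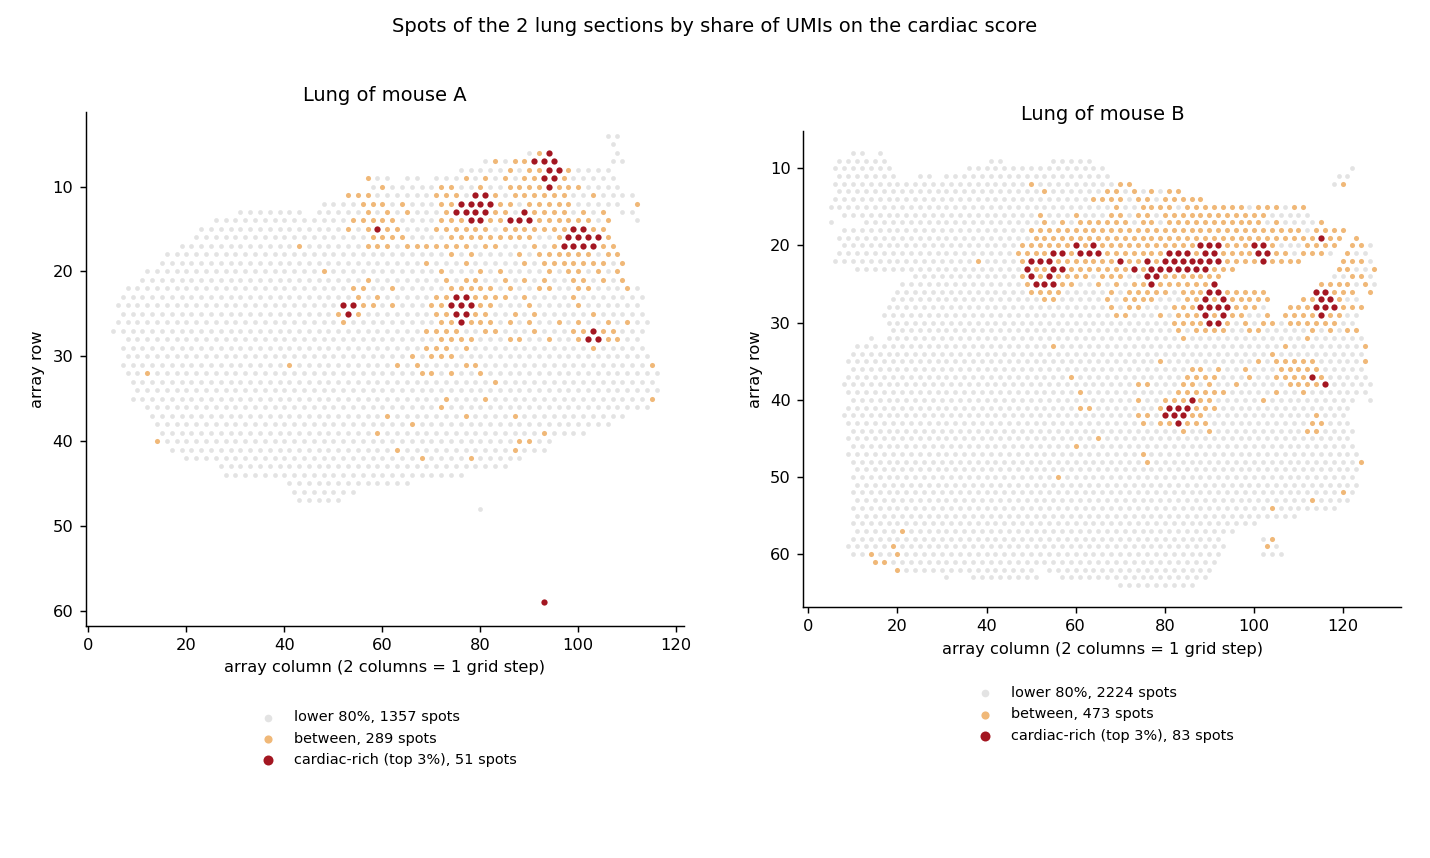
Positions of all kept spots of both lungs (array column against array row), coloured by class: cardiac-rich spots (51 in mouse A, 83 in mouse B), spots between and lower-scoring spots. Cardiac-rich spots form 9 patches in mouse A and 12 in mouse B.

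Around the patches the muscle lists fell off within a few steps of the grid. Sarcomere genes outside the score had a summed level of 5860 CPM in cardiac-rich spots of mouse A, 1474 CPM at 1 step, 1114 CPM at 2 steps and 775 CPM at 6 or more steps. In mouse B the levels were 8866, 2274, 1415 and 960 CPM. Vein endothelium genes (Vwf, Nr2f2, Slc6a2, Selp and Vcam1) were at 552 CPM in the spots, 325 CPM at 1 step and 328 CPM at 6 or more steps in mouse A, and at 536, 299 and 211 CPM in mouse B. Most of the sum in the spots was Vwf alone, at 380 CPM in mouse A and 375 CPM in mouse B. Airway genes did not follow the muscle genes in mouse B, where they stood at 2134 CPM in the spots, 4284 CPM at 2 steps and 412 CPM at 6 or more steps. In mouse A they were highest in the spots, at 3308 CPM, with 2743 CPM at 2 steps and 1145 CPM at 6 or more steps. Of these 983 airway UMIs in the spots of mouse A, 666 lay in 1 patch of 9 spots. Without that patch the spots stood at 1280 CPM, below the 2444 CPM at 1 step. RNA that spreads between spots and muscle that reaches into a neighbouring spot cannot be told apart in these counts.

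**Figure D2:**
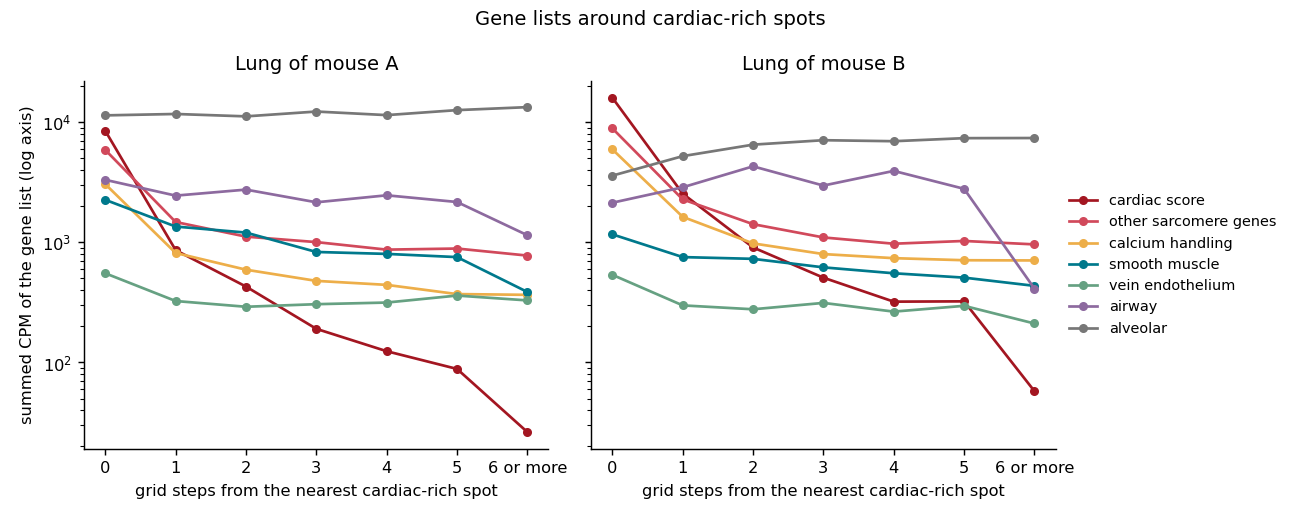
Summed CPM of gene lists (log axis) against grid steps from the nearest cardiac-rich spot in each lung, with 1 line per list. Sarcomere genes outside the score fall from 5860 to 1474 CPM within 1 step in mouse A and from 8866 to 2274 CPM in mouse B, while the alveolar list is higher at 6 or more steps than in the spots (13314 against 11372 CPM and 7370 against 3585 CPM).

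The label was checked on 11 heart muscle markers that the score does not use. Of these, 6 passed the edgeR quasi-likelihood test of cardiac-rich against lower-scoring spots over 2 mice (Benjamini-Hochberg adjusted p under 0.05) and 9 passed it with the mouse as a block, of 10 that could be tested. Actn2, the actinin of the Z disc, rose from 0.884 to 155 CPM in mouse A and from 1.00 to 312 CPM in mouse B (log2 fold change 7.86, standard error 0.58, adjusted p = 0.0178 by edgeR). Tnnc1, the calcium-binding troponin of heart and slow muscle, rose from 2.76 to 296 CPM and from 6.68 to 455 CPM (adjusted p = 0.028). Mybpc3, the heart form of myosin-binding protein C, stood at 33.7 against 4.86 CPM and 97.2 against 1.51 CPM, with an adjusted p of 0.216 by edgeR and of 1.13e-21 with the block. Of the transcription factors among the markers, Tbx20 was counted at 7 and 34 UMIs in the spots, Nkx2-5 at 0 and 12 UMIs and Gata4 at 1 and 6 UMIs. Nkx2-5 was too low to be tested, and Gata4 passed neither fit (adjusted p = 1 by edgeR and 0.398 with the block).

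Across all genes, 54 of 12682 tested (0.426%) were higher in cardiac-rich than in lower-scoring spots and none was lower by edgeR, with 436 genes at an unadjusted p under 0.05. With the mouse as a block, 544 genes were higher (4.29%) and 233 lower (1.84%), and DESeq2 called 179, all higher. The block takes out differences between the mice. It leaves 1 residual degree of freedom, so its p-values lean on the spread shared by all genes. The spots were picked for heart muscle RNA, so a gene of the same cells had to be higher in them, and the calls tell which genes share these spots. The same 54 genes passed with the block and by DESeq2. When the UMIs of each spot were split at random, with 1 part choosing the spots and the other measured, 44 genes passed and all were among the 54. With the top 5% of spots in place of the top 3%, none passed by edgeR and 347 had an unadjusted p under 0.05. The counts are sums over spots, in which fewer cells of a type and less RNA per cell cannot be told apart.

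Of 30 sarcomere genes outside the score, 28 were higher in cardiac-rich spots in both mice and 1 was lower in both. Of the 29 tested, 15 rose by edgeR and 27 with the block. The median log2 fold change was 6.14 against -0.08 over all genes tested. Higher in both mice were 3405 of all 12682 genes tested. Nebl differed little, at 145 against 126 CPM in mouse A and 69.4 against 59.5 CPM in mouse B. Titin (Ttn), the elastic filament that spans the sarcomere, was counted at 113 UMIs in cardiac-rich spots of mouse A (380 against 2.32 CPM) and at 462 UMIs in mouse B (802 against 2.08 CPM; log2 fold change 8.00, standard error 0.63, adjusted p = 0.0178). Myoz2, a Z disc partner of calcineurin, rose from 0.884 to 256 CPM and from 0.926 to 323 CPM (adjusted p = 0.0178), Tcap, the titin cap, from 6.63 to 505 CPM and from 3.47 to 630 CPM (adjusted p = 0.0204), and Csrp3, the muscle LIM protein, from 4.20 to 293 CPM and from 1.93 to 290 CPM (adjusted p = 0.0213). Hspb7, a small heat shock protein of heart muscle, rose from 11.05 to 377 CPM and from 12.97 to 956 CPM (adjusted p = 0.034). For each of these 5 genes both cardiac-rich sums lay above both lower-scoring sums. Desmin (Des), which smooth muscle also makes, stood at 724 against 83.8 CPM and 670 against 55.8 CPM and passed with the block (adjusted p = 1.83e-102) but not by edgeR without it (adjusted p = 0.0731).

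Calcium handling genes followed. Of 14 tested, 6 rose by edgeR and 13 with the block. Pln, phospholamban, the regulator of the calcium pump, rose from 0.663 to 148 CPM in mouse A and from 1.66 to 498 CPM in mouse B (log2 fold change 7.96, standard error 0.88, adjusted p = 0.034). Ryr2, the calcium release channel of heart muscle, rose from 4.64 to 165 CPM and from 1.54 to 239 CPM (adjusted p = 0.0393), and its partners Casq2, Trdn and Hrc, which buffer calcium or anchor the buffer at the channel, also rose (adjusted p = 0.0178 for each). The pump itself, Atp2a2, which most cells express, stood at 2107 against 256 CPM and 4174 against 557 CPM and passed with the block (adjusted p = 5.26e-80) but not without it (adjusted p = 0.377). Of 8 ion channel genes tested, 2 rose by edgeR and 6 with the block. Both were Kcnj3 and Kcnj5, whose products form the channel through which acetylcholine slows the atrium. The list holds 14 ion channel genes, and the other 6 were too low to be tested. The share that rose among tested genes therefore does not stand for the whole list. Over all 14 genes, 8 were higher in both mice and 3 lower in both. Their median log2 ratio was 0.40 (mouse A) and 0.98 (mouse B). Kcnj3 was counted at 8 UMIs against 1 in the lower-scoring spots of mouse A and at 33 against 8 in mouse B, and Kcnj5 at 10 against 3 and 21 against 6, although the lower-scoring sums were much deeper. Chrm2, the muscarinic receptor that opens this channel, is in no list and was chosen after its values were seen: it rose from 5.75 to 94.2 CPM and from 3.63 to 83.3 CPM (adjusted p = 0.0394).

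Genes of muscle energy supply were higher as well. Of 14 tested, 6 rose by edgeR and all 14 with the block. Ckm and Ckmt2, the creatine kinases of cytosol and mitochondrion, rose from 2.54 to 330 CPM and from 0.663 to 158 CPM in mouse A, and from 1.51 to 529 CPM and from 0.849 to 364 CPM in mouse B (adjusted p = 0.0178 for both). The muscle and heart subunits of cytochrome oxidase Cox6a2 (515 against 14.03 CPM and 947 against 14.7 CPM, adjusted p = 0.0243) and Cox7a1 (205 against 5.64 CPM and 316 against 6.21 CPM, adjusted p = 0.0178) rose, and Cox8b had an adjusted p of 0.0731 by edgeR and of 4.93e-107 with the block. Myoglobin (Mb), the oxygen store of muscle, was counted at 10 and 28 UMIs against 2 and 5 (adjusted p = 0.0232). Among 16 genes of fatty acid oxidation, 1 rose by edgeR, Fabp3, the fatty acid carrier of heart muscle (178 against 4.42 CPM and 281 against 2.12 CPM, adjusted p = 0.0268), and 10 with the block. Cpt1b, the muscle gate of fatty acid import into mitochondria, had 26.9 against 3.20 CPM and 65.9 against 2.93 CPM (adjusted p = 0.117, and 8.79e-14 with the block).

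Junction and factor genes were closer to the lung background. Of 9 intercalated disc genes tested, none passed by edgeR and 3 with the block: Dsp (desmoplakin, 87.5 against 30.4 CPM and 229 against 34.5 CPM), Ctnna3 and Pkp2. Of 13 heart transcription factor genes tested, none passed by edgeR and 7 with the block, among them Tbx20, Hand2 (6 and 7 UMIs against 0 and 2) and Prox1. Tbx5, which both the atrium and the lung mesenchyme express, stood at 77.4 against 36.6 CPM and 92.0 against 19.9 CPM (adjusted p = 0.807, and 8.37e-09 with the block). Ankrd1, a stress-responsive protein of heart muscle, was abundant, at 448 against 31.0 CPM and 2020 against 194 CPM. It passed with the block (adjusted p = 3.12e-105) but not without it (adjusted p = 0.94), and its level was higher in mouse B in both classes. Without 1 patch of 10 spots in mouse A it stood at 246 CPM. Over the whole primary tumour sections Ankrd1 stood at 269 CPM in mouse A and 210 CPM in mouse B.

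**Figure D3:**
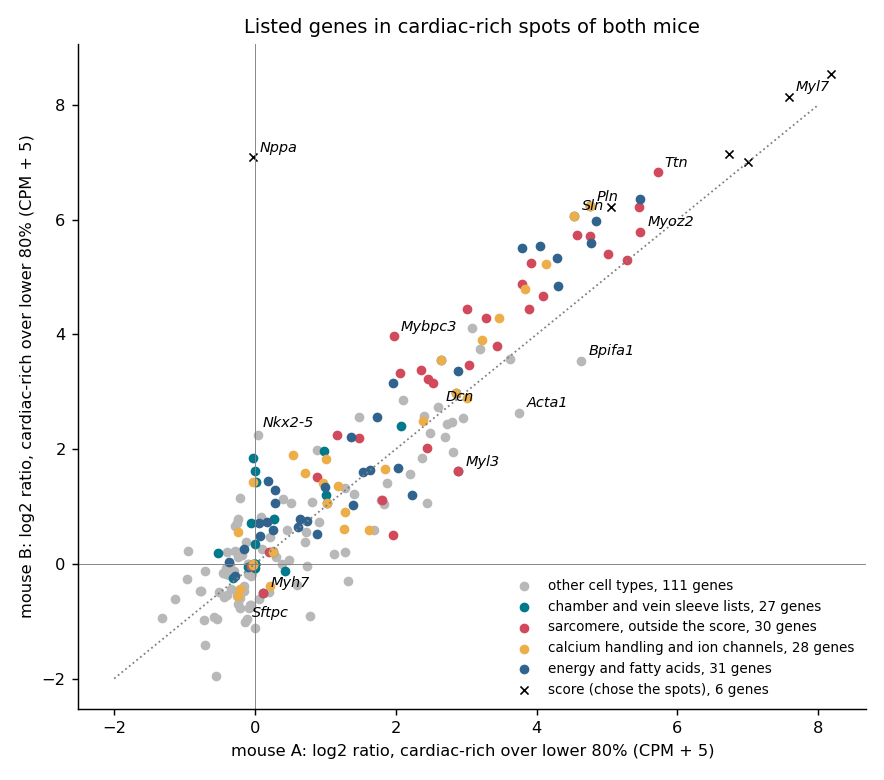
Log2 ratio of cardiac-rich to lower-scoring spots (summed CPM + 5) in mouse B against mouse A for listed genes, coloured by list, with the line of equal ratios dotted. A gene of several lists counts in each and shows the last colour. Of 119 heart muscle genes outside the score, 100 lie above 0 in both mice and 6 below it in both. Ttn lies at 5.72 and 6.83, whereas Nppa lies at -0.03 in mouse A and 7.09 in mouse B.

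Chamber genes were counted by list. Of 9 atrial genes tested outside the score, 3 rose by edgeR and 5 with the block, and of 3 ventricular genes tested 1, Pln, rose by edgeR and 2 with the block. The 3 atrial genes that rose by edgeR (Sln, Kcnj3 and Kcnj5) and Pln were already counted above among calcium handling or ion channel genes. The lists were not tested against each other. The summed level of the atrial list was 384 against 126 CPM (mouse A) and 744 against 95.1 CPM (mouse B), and that of the ventricular list was 242 against 53.7 CPM and 526 against 27.3 CPM. Most of the ventricular sum was Pln (148 and 498 CPM, adjusted p = 0.034 by edgeR), which atrial muscle also makes. Without Pln, a setting chosen after the data were seen, the ventricular sum was 94.2 against 53.0 CPM and 27.8 against 25.7 CPM. The atrial gene Sln was counted at 36 UMIs in mouse A (121 CPM, interval 84.9 to 168, against 0.442) and at 219 UMIs in mouse B (380 CPM, 331 to 434, against 0.733), and rose by edgeR (log2 fold change 8.57, standard error 0.80, adjusted p = 0.0233). Of the ventricular genes, Myl2 was counted at 0 UMIs in the cardiac-rich spots of both mice, which allows up to 10.1 CPM in mouse A and 5.21 CPM in mouse B. Myl3 was counted at 10 UMIs (33.7 CPM, 16.1 to 61.9) and 6 UMIs (10.4 CPM, 3.82 to 22.7), above 2 UMIs and 1 UMI in the lower-scoring spots (adjusted p = 0.123 by edgeR, and 1.38e-11 with the block). Without the patch with the most of these UMIs its level was 21.8 CPM in mouse A and 5.39 CPM in mouse B. Myh7, the slow myosin of ventricle and slow muscle, stood at 53.9 against 49.4 CPM and at 15.6 against 24.2 CPM (adjusted p = 1 by edgeR, and 0.813 with the block). Myh6 and Myh7 are neighbouring genes of like sequence, and how well their probes tell them apart was not tested. Irx4 and Hand1 were at 0 UMIs in the spots of both mice. Of the atrial genes, Bmp10 was also at 0 UMIs in both mice, and Corin was at 0 and 8 UMIs. Nr2f1 stood at 6.73 against 11.9 CPM in mouse A and at 24.3 against 20.7 CPM in mouse B. Of all 11 atrial genes on the list 8 were higher in both mice, and of all 8 ventricular genes 3 were. As a description across different probes, with Myl7 and Myl4 themselves among the genes that chose the spots, Myl2, Myl3 and Myh7 gave 2.73% of the UMIs of these genes plus Myl7, Myl4 and Sln in mouse A (exact binomial interval 1.79 to 3.98%) and 0.517% in mouse B (0.290 to 0.851%). Where Myh6, Tnnt2 and Tnni3 alone chose the spots, so that no atrial light chain took part in the choice, the shares were 2.72% and 0.632%. Myh7, which passed neither fit, gave 16 of the 26 ventricular UMIs in mouse A and 9 of the 15 in mouse B. Nothing is read from these shares about the levels of the genes against each other.

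Genes of the vein sleeve and the node were few. Hcn4, Isl1 and Tbx18 were at 0 UMIs in the spots of both mice, and Shox2 at 0 and 1. Tbx3, which lung mesenchyme expresses, stood at 53.9 and 26.0 CPM, and at 68.2 and 31.6 CPM in the lower-scoring spots. Smoc2, a matricellular protein placed on this list, stood at 37.0 against 4.97 CPM and 69.4 against 8.99 CPM (adjusted p = 0.229 by edgeR, and 4.34e-11 with the block), and the smooth-muscle-rich spots had similar levels of 37.4 and 52.1 CPM. At these counts, a node gene of a few CPM was not detectable.

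**Figure D4:**
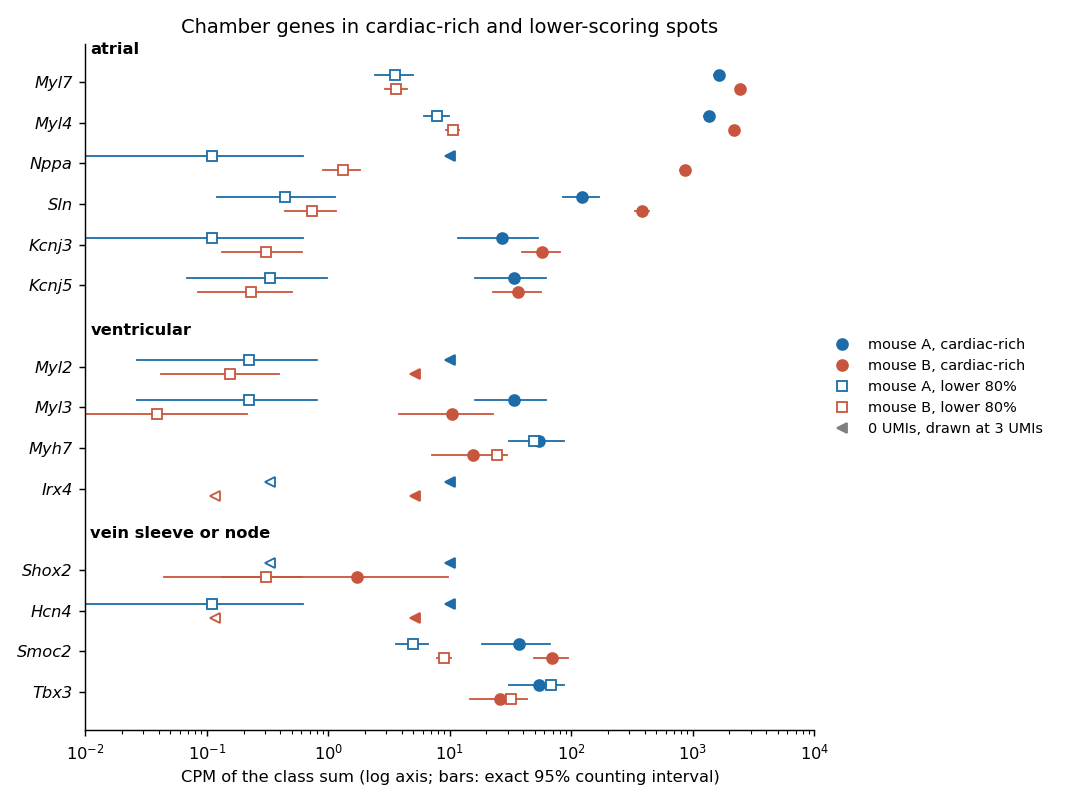
CPM (log axis) of atrial, ventricular and vein sleeve or node genes in cardiac-rich spots (filled) and lower-scoring spots (open) of each mouse, with exact 95% counting intervals. Triangles stand for 0 UMIs, drawn at 3 UMIs. Sln lies at 121 and 380 CPM in cardiac-rich spots, whereas Myl2 has 0 UMIs in both mice.

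Nppa set the mice and the patches apart. In mouse A it was counted at 0 UMIs in the 51 cardiac-rich spots and at 2 UMIs in the whole section, although Myh6 gave 1008 UMIs. In mouse B it was counted at 493 UMIs in cardiac-rich spots (855 CPM, 782 to 934), at 384 in spots between and at 34 in lower-scoring spots. The count of 0 allows up to 10.1 CPM in mouse A. With 1 section of each mouse, the difference has no replicate check, and the mouse and the plane of section cannot be told apart. Within mouse B, 48 of 83 cardiac-rich spots had Nppa, and the highest, a patch of its own, had 81 UMIs of Nppa beside 21 of Myh6. That spot was not among those chosen when Nppa was left out of the score. Another single spot had 20 beside 9. Of the 7 patches of 3 or more spots, 3 held nearly all of the Nppa of these patches. The patch of 26 spots had 198 UMIs (19.5 per 100 UMIs of Myh6), the patch of 8 spots around row 27.4 and column 116 had 88 (17.4 per 100), and the patch of 5 spots around row 20.8 and column 102 had 92 (44.0 per 100). The other 4 patches had 5, 4, 1 and 3 UMIs beside 520, 455, 336 and 123 of Myh6, which is 0.298 to 2.44 per 100. Over the same 7 patches Sln varied from 4.62 to 11.4 and Myl7 from 27.1 to 56.5 per 100 UMIs of Myh6. Nppa is part of the score, and when it was left out of it 80 of the 83 spots of mouse B were still chosen. Airway genes stood at 12036, 5997 and 599 CPM in the 3 patches with much Nppa and from 129 to 3134 CPM in the other 4, and their part in this was not tested.

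**Figure D5:**
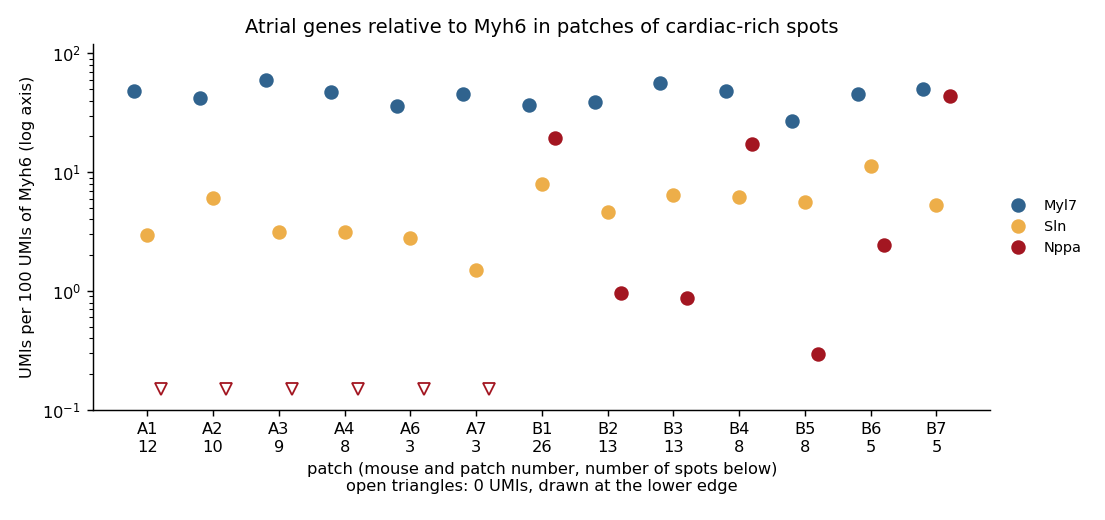
UMIs of Myl7, Sln and Nppa per 100 UMIs of Myh6 (log axis) in patches of at least 3 cardiac-rich spots, with the patch and its number of spots on the x axis. The patch of 4 spots of mouse A that has almost no Myh6 is left out. In mouse B, Nppa spans 0.298 to 44.0 while Sln stays between 4.62 and 11.4, and all patches of mouse A have 0 UMIs of Nppa.

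Markers of other cell types were also counted in these spots. Of 9 smooth muscle genes tested, none passed by edgeR and 8 with the block, and their summed level was 2255 against 452 CPM in mouse A and 1164 against 434 CPM in mouse B. In mouse A, 1 patch of 4 spots stood at 24529 CPM, and without it the sum was 1295 CPM. All settings here that leave out a patch were chosen after the data were seen. The median over single cardiac-rich spots was 720 CPM (mouse A) and 945 CPM (mouse B). Of the cardiac-rich spots, 9 in mouse A and 14 in mouse B were also in the top 3% of spots by smooth muscle genes. In mouse A, 4 of the spots had no UMI of Myh6, Myl7 or Myl4 and entered on 27 UMIs of Tnnt2 alone, with 49 UMIs of Acta2 and 38 of Myh11, the actin and myosin of smooth muscle. Without them, 50 genes passed by edgeR in place of 54, all of them among the 54. Of 6 airway genes tested, 1 rose by edgeR and 4 with the block. The antimicrobial Bpifa1 rose from 20.8 to 636 CPM in mouse A and from 40.4 to 524 CPM in mouse B (log2 fold change 4.19, standard error 0.52, adjusted p = 0.0482). Of its 189 UMIs in mouse A, 166 lay in 1 patch of 9 spots, without which its level was 92.9 CPM, and without 1 patch of 5 spots in mouse B it was 298 CPM. Without airway-rich spots Bpifa1 did not pass (log2 fold change 2.11, adjusted p = 0.273 by edgeR), nor did it without smooth-muscle-rich spots (2.06, adjusted p = 0.581). Against all other spots it did not pass either (2.46, adjusted p = 0.384). The range of the airway list over single cardiac-rich spots was 0 to 39926 CPM in mouse A with a median of 1083 CPM, and 0 to 32459 CPM in mouse B with a median of 345 CPM. Without airway-rich spots 56 genes passed, and 52 were shared with the 54, and without smooth-muscle-rich spots 44 passed and 43 were shared. Of 8 fibroblast genes, 1 rose by edgeR, the small proteoglycan Dcn (162 against 22.4 CPM and 170 against 21.2 CPM, adjusted p = 0.0492), and 7 with the block. Of 3 adipose genes tested, 1 rose by edgeR and 2 with the block. The first was Cfd, the fat-derived complement factor D (87.5 against 5.97 CPM and 142 against 3.55 CPM, adjusted p = 0.038). Of its 26 UMIs in mouse A, 22 lay in 1 patch of 10 spots, without which its level was 16.996 CPM, and without 1 patch of 8 spots in mouse B it was 89.0 CPM. Without smooth-muscle-rich spots the adjusted p of Cfd by edgeR was 0.0532, with a log2 fold change of 4.12 in place of 4.54. Against all other spots its log2 fold change was 2.72 (adjusted p = 0.170 by edgeR). The adipose list summed to 97.6 against 11.2 CPM (mouse A) and to 180 against 5.83 CPM (mouse B). The fat marker Adipoq was counted at 0 UMIs in mouse A and at 4 UMIs in mouse B (6.94 against 0.386 CPM). Cidec, a lipid droplet protein, was counted at 1 UMI in mouse A and at 14 UMIs in mouse B (24.3 against 1.20 CPM, adjusted p = 1 by edgeR, and 0.000427 with the block). The part of these cell types in the gene counts was otherwise not tested.

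Skeletal muscle genes summed to 276 against 38.0 CPM (mouse A) and to 170 against 29.8 CPM (mouse B). Of 19 on the list, 9 could be tested, 2 rose by edgeR and 5 with the block, and 8 were at 0 UMIs in the spots of both mice. Acta1 (19 and 16 UMIs against 1 and 7, adjusted p = 0.0366) and Myl1 (18 and 33 UMIs against 3 and 6, adjusted p = 0.0178) rose, while the fast myosins Myh1, Myh2 and Myh4 and the fast actinin Actn3 were among the 8 at 0. Acta1 is also made by heart muscle.

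Some alveolar and capillary genes fell in the blocked fit. Of 7 alveolar genes, none passed by edgeR and 5 fell with the block, among them Ager, the marker of flat alveolar cells (814 against 1330 CPM and 206 against 559 CPM, adjusted p = 1 and 1.86e-11 with the block). Of 5 capillary endothelium genes, 3 fell with the block and none by edgeR. Of 5 vein endothelium genes none passed by edgeR and 1 rose with the block, Vwf, the clotting factor carrier of endothelium (380 against 204 CPM and 375 against 90.9 CPM, adjusted p = 1 and 1.22e-19 with the block). Of 9 neutrophil genes, 3 fell with the block and none by edgeR. Of 7 genes of the 4T1 tumour, 3 fell with the block and none by edgeR. Among the largest decreases by the rule for named genes were Ltbp2, Retnla, Rbpjl, Mpo, Nckap5, Ctsg, Gna14, Scimp and Hbegf. None of these passed by edgeR, and all but Scimp fell with the block. Retnla, an effector of type 2 immunity, stood at 485 against 1722 CPM in mouse A and 637 against 1650 CPM in mouse B (adjusted p = 0.688, and 1.48e-25 with the block), and Mpo and Ctsg, proteins of neutrophil granules, stood at 16.8 against 51.6 and 30.3 against 71.5 CPM in mouse A and at 3.47 against 14.6 and 6.94 against 25.3 CPM in mouse B.

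Smooth muscle of vessel and airway walls is the other contractile tissue of a lung section, so cardiac-rich spots were set against the 3% of spots richest in smooth muscle genes, leaving out spots in both sets. Of 8028 genes tested, 10 were higher in cardiac-rich spots by edgeR (0.125%) and 8 lower (0.0997%), with 602 genes at an unadjusted p under 0.05, and 80 were higher (0.997%) and 351 lower (4.37%) with the block. None of these edgeR calls was made with the top 5% of spots (607 genes at an unadjusted p under 0.05) or on split UMIs (350 genes), and DESeq2 called 124 genes. All 10 that were higher are on the heart muscle lists. Muscle energy gave 5 of its 14 tested genes and other sarcomere genes 4 of 24, and with the block 12 and 16. Cox6a2 stood at 562 against 22.5 CPM in mouse A and 794 against 42.1 CPM in mouse B (log2 fold change 4.41, standard error 0.52, adjusted p = 0.0381), Fabp3 at 189 against 7.48 and 267 against 10.01 CPM, Csrp3 at 310.5 against 7.48 and 265 against 12.01 CPM, Cox7a1 at 212 against 11.2 and 265 against 16.0 CPM, and Ckm at 350 against 33.7 and 473 against 36.0 CPM. Of the remaining increases named by rule, Ttn (417 against 3.74 and 709 against 38.0 CPM), Myoz2 and Tnnc1 had adjusted p-values of 0.054, 0.054 and 0.0504, and Ankrd1 and Tcap of 0.0989 and 0.0638, and all 5 passed with the block. Ryr2 (adjusted p = 0.054), Pln (0.0638) and Sln (0.054) missed the threshold of this edgeR fit and passed with the block.

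The 8 genes lower in cardiac-rich than in smooth-muscle-rich spots were Gabrp, Dnah5, Dnah12, Ccdc153, Ubxn10, Cfap100, Lrrc23 and Ppil6, the last 4 named after their values were seen. Of the 5 largest decreases by rule, Gabrp (11.8 against 273 CPM and 8.08 against 256 CPM, adjusted p = 0.0381), the dynein heavy chains of motile cilia Dnah5 and Dnah12 (adjusted p = 0.0381 and 0.0428) and Ccdc153 (0.0381) passed by edgeR, and Fam183b (0.054) with the block alone. All 6 airway genes tested were lower with the block and none by edgeR. The airway list summed to 3308 and 2134 CPM in cardiac-rich spots, to 1261 and 562 CPM in lower-scoring spots and to 8278 and 22277 CPM in smooth-muscle-rich spots (spots of both sets left out). Without 1 patch of 9 spots in mouse A the cardiac-rich level was 1280 CPM, and without 1 patch of 5 spots in mouse B it was 1406 CPM. Of 8 fibroblast genes none was called in either fit, with medians of -0.55 and 0.05 for the log2 ratios of mouse A and mouse B.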

How the data were processed

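Visium for fixed, paraffin-embedded tissue was run on 1 primary tumour and 1 lung section of each of 2 mice. The authors deposited raw UMI counts of 19465 genes per spot, with spot positions, made with Space Ranger 2.0.0 on mm10 per the labels and the study's methods. No normalized values were used. Spots with more than 200 genes were kept. The score, classes, sums and CPM were computed in Python 3.11.15 (numpy 2.4.6, scipy 1.17.1, pandas 2.3.3, matplotlib 3.10.9 for figures). A spot was cardiac-rich if it was in the top 3% of its section by the share of its UMIs on the score, and lower-scoring if it was in the lower 80%.

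Counts summed per section and class (n = 2 mice, 1 sum per class and mouse) were compared with edgeR 4.0.16 in R 4.3.3 (quasi-likelihood test, TMM, filterByExpr, Benjamini-Hochberg adjustment over all genes tested, threshold 0.05), without a block in the reported test. Genes of the score, and smooth muscle genes where they chose spots, were given no test. Because the 2 classes of a lung share an animal, samples were paired by mouse: their deviations from the class means correlated at 0.600 against lower-scoring and 0.565 against smooth-muscle-rich spots, and a replicate block fit stands beside each result whose call it changes. DESeq2 1.42.0, other sizes of the class, other scores and other reference spots were alternatives. In simulated counts with known changes the test without the block called none of the changed genes against lower-scoring spots and few against smooth-muscle-rich spots. The blocked fit called most of them in both. In the lungs the same test without the block called 54 genes against lower-scoring spots, Ttn among them at a log2 fold change of 8.00. The simulation therefore does not tell how often this test finds changes as large as that. A gene not called without the block is still not shown to be unchanged. CPM scale counts to 1000000 UMIs, and log2 ratios of single mice add 5 to each CPM. Motifs were searched in RefSeq promoters.

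Intervals are exact at 95% and cover counting error only, and a count of 0 allows 3 UMIs. Genes were named from lists or, by rule, as the 15 largest increases and 10 largest decreases of the smaller log2 ratio of the 2 mice (10 and 5 against smooth-muscle-rich spots), with at least 50 UMIs in both classes together in each mouse. The 15 largest increases were Ttn, Ckm, Myoz2, Tcap, Tnnc1, Csrp3, Ckmt2, Cox6a2, Actn2, Pln, Hspb7, Cox7a1, Fabp3, Ryr2 and Cox8b. Of the genes these rules name, 2 are not reported here. Members and gene lists were chosen with earlier results of these data known.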

Additional observations from a re-analysis of the deposited data

Results flagged for a closer look

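The primary tumour sections enter no comparison here. They held UMIs of some score genes above the level of the lower-scoring lung spots of the same mouse. These were 2 of 6 genes in mouse A and 4 of 6 in mouse B. Those lung spots were chosen for a low share of UMIs on these same genes, so the choice itself lowers the level used for reference. Over whole sections the summed score genes were lower in the tumours than in the lungs. The levels were 37.2 against 350 CPM (mouse A) and 59.0 against 533 CPM (mouse B). Tnnt2 stood at 28.6 CPM (387 UMIs) in the primary tumour of mouse A against 9.39 CPM in the lower-scoring spots of its lung, and Nppa at 0.739 CPM (10 UMIs) against 0.110 CPM. In the primary tumour of mouse B, Myl7 stood at 7.62 CPM against 3.63, Myl4 at 11.02 against 10.6, Tnni3 at 2.30 against 2.12 and Nppa at 8.45 against 1.31 CPM. The other score genes were lower in the primary tumour than in the lower-scoring lung spots. Myh6 stood at 0.517 against 6.74 CPM in mouse A and 9.55 against 10.5 CPM in mouse B, and Tnnt2 in mouse B at 20.02 against 27.8 CPM. Over 19 skeletal muscle genes the median level in the primary tumours was 0.665 CPM in mouse A and 5.51 CPM in mouse B, with a highest value of 2.81 and 9.46 CPM. The cause was not tested.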

How the results depend on the processing

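Cardiac-rich against lower-scoring spots gave 54 genes, and 777 under the pairing by mouse (a replicate block), 179 by DESeq2, 165 without a filter on low counts, 145 with the top 1% of spots, 0 with the top 5% (347 at an unadjusted p under 0.05) and 32 against all other spots. Of the settings added after the data were seen, the block gave 712 genes without spots lacking Myh6, Myl7 and Myl4, 458 on split UMIs and 761 with the score on Myh6, Tnnt2 and Tnni3. Heart muscle genes outside the score that were called higher numbered 31 as reported, 83 with the block, 52 by DESeq2, 51 without a filter, 49 with the top 1% and 0 with the top 5%, and 81, 70 and 82 in the blocked settings just named. Against smooth-muscle-rich spots the counts were 18 genes as reported, 431 in the blocked fit, 124 by DESeq2, 430 without a filter, 112 with the top 1%, 0 with the top 5% (607 unadjusted) and 0 on split UMIs (350 unadjusted), 135 with the score on Myh6, Tnnt2 and Tnni3, and with the block 148 on split UMIs and 691 with that score. Heart muscle genes among them numbered 10, 41, 25, 39, 29, 0, 0 and 23, and 25 and 46 with the block. Split UMIs leave fewer counts and fewer genes tested; for the other settings the cause was not tested.

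The share of spots with a cardiac-rich neighbour was 100% in mouse A with summed UMIs as the score and 99.3% in mouse B with the top 5%, against 84.7% in mouse B without smooth-muscle-rich spots. The largest patch of mouse B had 83 spots with the top 5% and 6 with the top 1%. The ventricular share was 1.72% in mouse A with the top 1% and 0.800% in mouse B with the top 5%. No named gene that edgeR called changed direction in any of these settings, and each such gene kept it in the single mouse that remains when the other is left out. With 2 mice, small differences were not detectable.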
